A study of Mus musculus with 2 samples.

Results

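The 8 genes described here are the myeloid growth factors and receptors: the ligands Csf1, Csf2 and Flt3l and the receptor chains Csf1r, Csf2ra, Csf2rb, Csf2rb2 and Flt3. They were chosen by symbol, and all 8 were found among the 31053 genes measured. Live CD45+ cells sorted from B16 tumours, a mouse melanoma model, were profiled by 3' single-cell RNA-seq (scRNA-seq) in 2 libraries. The library labelled WT came from Mettl3 fl/fl Lyz2 +/+ mice and the library labelled KO from Mettl3 fl/fl Lyz2 cre/+ mice, so the floxed Mettl3 alleles are shared by both, and mice of both groups were 8 weeks old. Cre expressed from the Lyz2 locus acts mainly in macrophages, monocytes and granulocytes, so lymphocytes and tumour cells were not its targets. Cells of several mice were pooled into 1 library per genotype. No difference between the libraries can therefore be set against the spread between mice, and no test between genotypes was possible. Every interval below is a 95% interval for counting error only.

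CSF1, or M-CSF, signals through the receptor tyrosine kinase CSF1R and keeps monocytes and macrophages alive. GM-CSF, the product of Csf2, binds the alpha chain encoded by Csf2ra, which pairs with the common beta chain encoded by Csf2rb. Mice carry a second beta chain gene, Csf2rb2, whose product serves the interleukin-3 receptor. FLT3 ligand, from Flt3l, signals through FLT3, which is retained on dendritic cells and their progenitors. In tumours these axes are known for supporting tumour-associated macrophages, granulocytes and dendritic cells.

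The genes lie on 7 chromosomes of the GRCm38 build: Csf1 (ENSMUSG00000014599) at chr3:107741048-107760469, Flt3 (ENSMUSG00000042817) at chr5:147330741-147400489, Flt3l (ENSMUSG00000110206) at chr7:45129788-45136432, Csf2 (ENSMUSG00000018916) at chr11:54247271-54249667, Csf1r (ENSMUSG00000024621) at chr18:61100598-61132149 and Csf2ra (ENSMUSG00000059326) at chr19:61223957-61228429. Both beta chain genes share chromosome 15, where Csf2rb2 (ENSMUSG00000071714) at chr15:78282507-78305721 and Csf2rb (ENSMUSG00000071713) at chr15:78325752-78353847 point away from each other across a gap of 20.03 kb. On their own strand, Mir6983 lies within Csf1r, Mir7676-2 within Csf2rb and Mir7676-1 within Csf2rb2, and Gm45713 overlaps Flt3l. On the other strand, Hmgxb3 overlaps Csf1r, Gm12223 overlaps Csf2 and Gm26597 overlaps Flt3. The beta chain genes are close copies: of all 31-base words in the last 600 bases of their transcripts, 13.9% of those of Csf2rb also occurred in Csf2rb2 and 18.2% of those of Csf2rb2 in Csf2rb, so a part of the reads of each could not be told from the other.

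RefSeq promoters of 6 of the 8 genes were available, and those of Csf1, Csf2ra and Csf2rb2 are printed because these genes shared high levels in granulocytes. Each line holds the 250 bases before the RefSeq start site (GRCm38.p6, minus strand, read 5′ to 3′), with capitals at every match to 4 motifs searched on both strands.

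Csf1, chr3:107760470-107760719: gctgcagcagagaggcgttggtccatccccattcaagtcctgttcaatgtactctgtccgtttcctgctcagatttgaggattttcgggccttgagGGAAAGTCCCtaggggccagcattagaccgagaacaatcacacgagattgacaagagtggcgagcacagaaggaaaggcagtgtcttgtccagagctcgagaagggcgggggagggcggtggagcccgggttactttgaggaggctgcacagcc
Csf2ra, chr19:61228419-61228668: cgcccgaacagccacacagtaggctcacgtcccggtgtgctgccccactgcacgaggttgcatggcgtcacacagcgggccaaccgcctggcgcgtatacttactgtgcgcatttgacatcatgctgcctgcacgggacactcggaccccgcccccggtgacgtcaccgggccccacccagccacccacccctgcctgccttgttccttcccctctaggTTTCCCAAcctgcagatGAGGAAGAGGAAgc
Csf2rb2, chr15:78305722-78305971: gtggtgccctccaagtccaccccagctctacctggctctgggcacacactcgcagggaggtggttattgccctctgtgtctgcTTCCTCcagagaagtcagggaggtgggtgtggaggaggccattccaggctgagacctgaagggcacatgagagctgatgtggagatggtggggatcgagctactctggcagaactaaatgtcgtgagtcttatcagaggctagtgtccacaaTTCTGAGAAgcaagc

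The purine-rich GAGGAA word, the core bound by PU.1-type factors, matched 2 times in Csf2ra, at 14 and 8 bases before the start, and once on the other strand in Csf2rb2, 167 bases before it. It occurred in 23.25% of all 32851 promoters. TTNNGNAA, a C/EBP-type pattern found in 36.85% of promoters, matched Csf2ra on the other strand 31 bases before the start, and the STAT-type palindrome TTCNNNGAA, found in 7.02%, matched Csf2rb2 15 bases before its start. In Csf1 an NF-kB-type word matched on the other strand 154 bases before the start, and 0.356% of promoters held it. Of the other promoters in the table, Csf2 held 1 TTNNGNAA match, and Flt3 and Flt3l held none of the 4 words. These are matches of letters and do not show that a factor binds there.

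Levels were taken as unique molecular identifiers (UMIs) of a gene for every 1000000 UMIs of its cell class (CPM). Cells were assigned to classes by marker genes that held none of the 8 members, and each class name stands for cells like that type. Of 5405 kept cells labelled WT and 7625 labelled KO, 86.2% and 86.6% received a class. The macrophage gate held 1674 and 1965 cells, the monocyte gate 936 and 2447, and the granulocyte gate 563 and 243. Median depth was 4148 and 3567 UMIs per cell, and 13 barcode sequences occurred in both libraries. Despite the CD45+ sort, 135 and 228 cells carried melanocyte genes and are called melanoma cells. Mettl3 was low in both libraries: macrophages labelled WT held 9.85 CPM (8.50 to 11.4) and those labelled KO 10.4 (8.94 to 12.0). The chemistry counts transcript ends and the deleted part of Mettl3 is not given in the sources used here, so this level does not check the deletion. The libraries are therefore named by their labels.

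All 8 genes had the same highest class in both libraries among the 11 classes with at least 30 cells in each. The number was 5 when cells were grouped by Leiden clusters in place of gates, and 5 after thinning. In 11 of the 16 gene-by-library cases the interval of the highest class stood clear of the next. This count was 8 without the cell with the most UMIs and 4 after every cell was thinned to 1000 UMIs. It was 9 without T, NK and melanoma cells that carried macrophage or monocyte markers. Csf1 and Csf2rb were highest in granulocytes, as was Csf2ra, and Csf1r was highest in monocytes. Csf2 and Flt3l were highest in natural killer (NK) cells, Csf2rb2 in plasmacytoid dendritic cells (pDCs) and Flt3 in mature dendritic cells. T cells led Csf2 labelled KO after thinning, and Flt3l labelled WT after thinning or under Leiden clusters. Conventional type 1 dendritic cells led Flt3 labelled KO under these 2 settings and with a wider gate margin. Monocytes led Csf2ra labelled WT under Leiden clusters. With doublets kept, nonclassical monocytes led Csf1r and, labelled KO, Csf2ra.

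**Figure D1:**
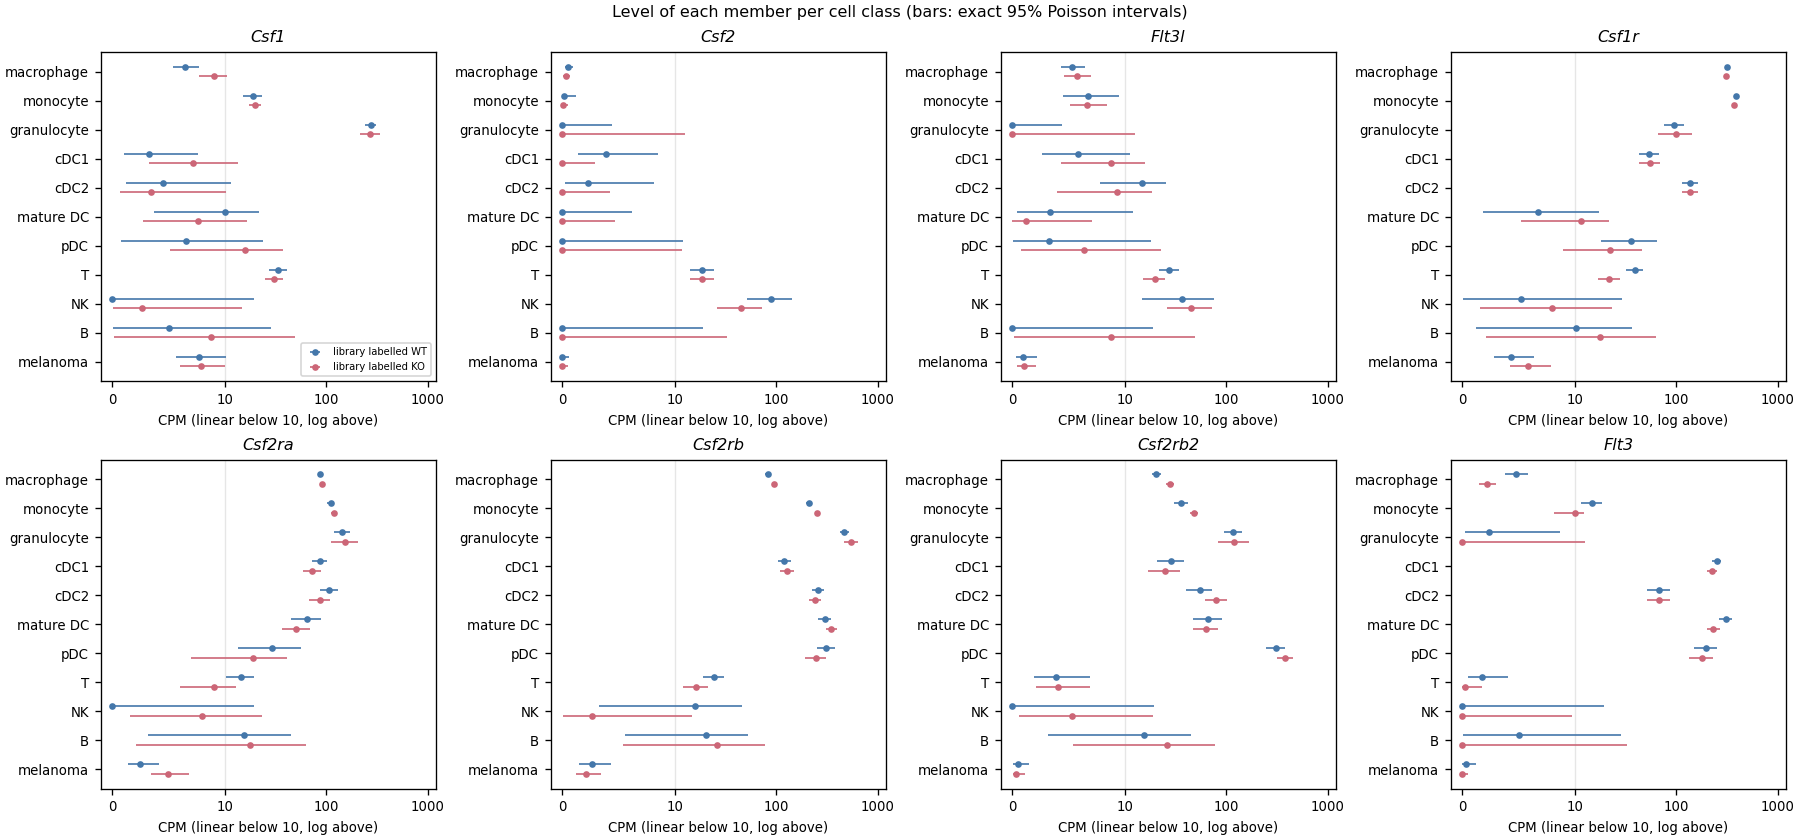
CPM of each gene (x axis, linear below 10 and logarithmic above) in 11 cell classes (y axis), with 1 point per library and bars for exact 95% Poisson intervals. Csf1 stands at 273 and 269.6 in granulocytes and Csf2rb2 at 306 and 377 in pDCs, and the points of the libraries mostly lie close together.

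Among the ligands, Csf1 had its highest level in granulocytes. Granulocytes labelled WT held 273 CPM (239 to 311) and those labelled KO 269.6 (213 to 336), and values below are given in this order. T cells came next with 33.5 and 30.5, followed by monocytes with 18.8 and 19.8, whereas macrophages, the cells that respond to CSF1, held 6.48 and 9.07. The granulocyte level was therefore 8.15 and 8.83 times that of T cells, the next class. By share of cells the order depended on depth. A Csf1 UMI was present in 20.8% and 17.3% of granulocytes (median depth 1304 and 1019 UMIs). It was present in 22.2% and 18.4% of melanoma cells (median depth 46883 and 34560.5), which held 7.71 and 7.87 CPM. Granulocytes were 10.4% of kept cells labelled WT and carried 29.3% of all Csf1 UMIs, and in the library labelled KO, where they were 3.19% of cells, they carried 10.1%. Macrophages gave 16.1% and 20.1%, monocytes 11.2% and 25.2% and T cells 12.2% and 12.5% of Csf1 UMIs, so each of these classes gave more than granulocytes in the library labelled KO. Csf1 was not even among granulocytes. Those without a UMI of Retnlg, a gene of mature circulating neutrophils, held 456 (379 to 544) and 445 (328 to 590), against 186 (152 to 225) and 168 (114 to 238) in those with one. The intervals of these sub-gates did not overlap in the library labelled WT or in that labelled KO.

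Csf2 was sparse and came mostly from lymphocytes. NK cells held 89.0 CPM (51.9 to 142.5) and 45.0 (26.2 to 72.1), and T cells 18.7 in both libraries (14.0 to 24.4 and 14.3 to 24.1). T cells gave 55.8% and NK cells 17.9% of all Csf2 UMIs labelled WT, and 62.5% and 17.7% of those labelled KO. The NK values rested on 17 UMIs in each library, of which 14 and 8 lay in a single cell. No Csf2 UMI was seen in granulocytes, mature dendritic cells, pDCs, B cells or melanoma cells of either library. In granulocytes a count of 0, taken as at most 3 UMIs, allows up to 3.59 and 10.2 CPM, and the upper limits of the exact Poisson intervals were 4.41 and 12.6. Among T cells of the library labelled WT, CD8 T cells with Gzmb, which encodes the cytotoxic protease granzyme B, held 23.1, those without it 22.0, CD4 T cells without Foxp3 12.0 and T cells outside these sub-gates 5.47, with 33, 16, 2 and 2 UMIs. In the library labelled KO the same sub-gates held 12.1, 2.29, 65.0 and 34.5, with 21, 1, 19 and 19 UMIs. Single cells held much of these counts: 12 of the 33 UMIs labelled WT in CD8 T cells with Gzmb, 7 of the 16 in those without it, 7 of the 19 labelled KO in CD4 T cells and 13 of the 19 in T cells outside the sub-gates. Foxp3 T cells had none in either library.

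Flt3l was also led by lymphocytes, at 36.6 (14.7 to 75.5) and 45.0 (26.2 to 72.1) in NK cells and 27.5 (21.7 to 34.3) and 19.6 (15.1 to 25.1) in T cells. The NK and T intervals overlapped in the library labelled WT and stood apart in that labelled KO. Macrophages, at 5.34 and 5.72, and monocytes, at 6.70 and 6.63, lay well below both. They were many, so macrophages still gave 36.5% and 32.1% of all Flt3l UMIs. Unlike Csf2, Flt3l was spread thinly, with at most 3 UMIs in any cell of a compared class. Granulocytes, the leading class for Csf1, had no Flt3l UMI in 563 and 243 cells.

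**Figure D2:**
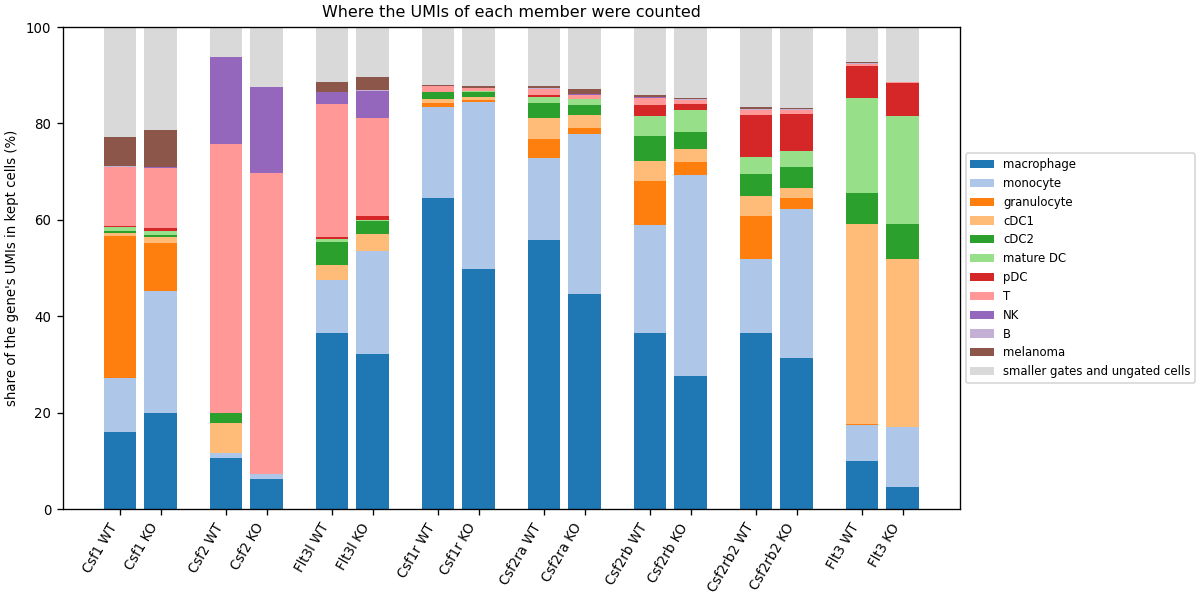
Share of the UMIs of each gene in kept cells (y axis, percent) that was counted in each class, with 1 stacked bar per gene and library. Macrophages gave 64.5% of Csf1r UMIs labelled WT and 49.8% labelled KO, whereas T cells gave 55.8% and 62.5% of Csf2 UMIs.

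Of the receptors, Csf1r marked the mononuclear phagocytes. Monocytes held 388 CPM (370.1 to 406) and 371 (359 to 383), and macrophages 316 (308 to 324) and 306 (298 to 314). Monocytes thus stood at 1.23 and 1.21 times the macrophage level, and the intervals did not overlap. The 29 and 84 cells of the nonclassical monocyte gate, which was too small in the library labelled WT to enter the comparison, held the most, 739.7 (544 to 984) and 704 (586 to 838). Dendritic cells were graded: 136 and 137 in conventional type 2 cells (cDC2s), 54.1 and 54.9 in conventional type 1 cells (cDC1s) and 6.72 and 11.4 in mature dendritic cells. A Csf1r UMI was present in 79.0% and 76.4% of macrophages (median depth 9587 and 7071 UMIs) and in 1.205% and 1.74% of NK cells (median depth 1942 and 1666), which should lack it. After every cell was thinned to 1000 UMIs the macrophage shares were 28.2% and 25.4% and the NK shares 0 of 77 cells (upper limit 4.68%) and 1.25% of 160 cells, with 118 and 166 macrophages and 6 and 12 NK cells too shallow to enter. The levels of 94.5 and 99.0 in granulocytes were above those in NK cells, at 5.24 and 7.94.

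Csf2ra, the GM-CSF alpha chain, lay within a narrow range across most myeloid classes. Granulocytes held 144 (119 to 172) and 154 (112 to 205), monocytes 110 and 118, cDC2s 106.5 and 86.1, macrophages 87.0 and 90.4, cDC1s 86.0 and 72.4 and mature dendritic cells 63.8 and 50.6. Granulocytes and monocytes, the first classes in the order, had overlapping intervals in both libraries. pDCs stood below the other myeloid classes at 29.4 and 19.0.

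Csf2rb, the common beta chain, was higher and more graded. It reached 467 (422 to 515) and 539 (458 to 630.1) in granulocytes, 301 and 348 in mature dendritic cells, 309.8 and 244 in pDCs, 256 and 239.8 in cDC2s, 211 and 251 in monocytes, 119 and 126 in cDC1s and only 82.0 and 94.9 in macrophages. The share of the alpha chain in the UMIs of alpha and common beta chain together was 51.5% (49.7 to 53.2) and 48.8% (47.1 to 50.5) in macrophages, 34.2% and 31.9% in monocytes, 23.5% and 22.2% in granulocytes and 8.65% and 7.23% in pDCs. These are shares of 3' UMIs and not of protein.

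Csf2rb2 took a different path. pDCs held 306 CPM (248 to 375) and 377 (312 to 452), which was 2.64 and 3.16 times the level of granulocytes, the next class, at 116 and 119. Monocytes held 35.6 and 48.1 and macrophages 20.5 and 28.1. Of the UMIs of both beta chain genes, Csf2rb2 took 49.7% (42.4 to 57.1) and 60.7% (53.5 to 67.6) in pDCs, against 18.2% (17.0 to 19.3) and 18.9% (18.0 to 19.9) over the other compared classes together. Among the other compared classes with enough UMIs this share ran from 13.8% in T cells labelled WT to 24.8% in cDC2s labelled KO. The lower limits of pDCs, 42.4% and 53.5%, lay above the upper limits of all these classes, of which T cells labelled KO had the highest at 31.8%. The part of reads shared by both copies in this contrast was not tested.

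**Figure D3:**
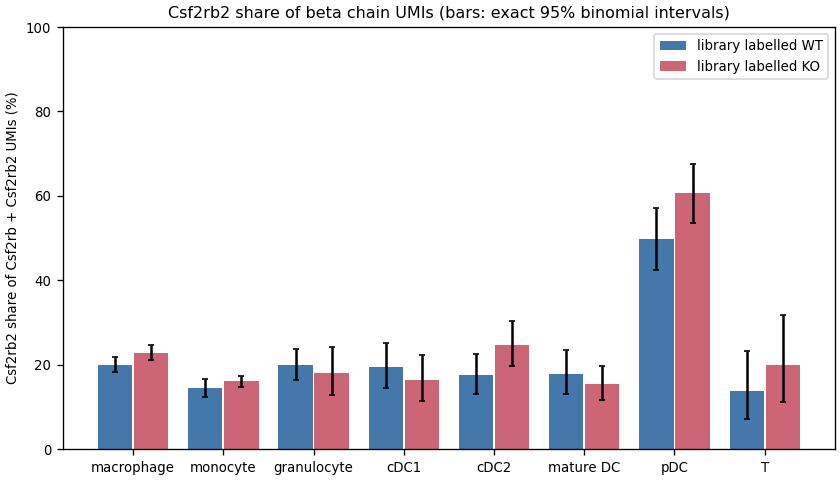
Csf2rb2 share of the UMIs of Csf2rb and Csf2rb2 together (y axis, percent) in each class with at least 30 such UMIs per library, with bars for exact 95% binomial intervals. pDCs stand at 49.7% and 60.7%, and the other classes between 13.8% and 24.8%.

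Flt3 was a dendritic cell gene. Mature dendritic cells held 306 CPM (263 to 353) and 230.3 (198 to 266), cDC1s 248 (224 to 274) and 225 (199.7 to 253), pDCs 196 and 178 and cDC2s 66.8 and 67.5. The first 3 of these classes had overlapping neighbours in the order, and cDC2s stood clear below pDCs in both libraries. Monocytes held 14.7 and 10.1, macrophages 4.77 and 2.19, and NK cells had no UMI. Csf1r and Flt3 divided the phagocytes: Csf1r took 98.5% and 99.3% of the UMIs of both genes in macrophages, 67.0% and 67.0% in cDC2s, 17.9% and 19.6% in cDC1s and 2.15% and 4.71% in mature dendritic cells.

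Across the 22 class-by-library values, the genes closest to each member by Pearson's r of log2(CPM + 1) were Tgfbi (0.95), Cd68 (0.94) and Pid1 (0.94) for Csf1r, and Pirb (0.96), Pira2 (0.94) and Spi1 (0.92), which encodes PU.1, for Csf2ra. For Csf2rb they were Prkcd (0.92), Alcam (0.90) and Csf2rb2 (0.88), and for Csf2rb2 they were Mknk1 (0.94), Prkcd (0.93) and Ncf1 (0.92). Csf1 lay closest to Hdc (0.87), Npepps (0.85) and Il1f9 (0.85), and Hdc was a granulocyte marker of the gate. The nearest genes of Csf2 were F2r (0.95), Klrc2 (0.94) and Eomes (0.94), an NK marker of the gate. Flt3 was closest to Pmvk (0.90), Syngr2 (0.90) and Rogdi (0.86), and Flt3l to Hist1h4a (0.91), Erap1 (0.86) and Anxa6 (0.85). The 22 values come from 2 libraries and share their depth, so these are descriptions.

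Between the libraries most members differed by less than 1.5-fold. Of 47 gene-by-class pairs with at least 30 UMIs over both libraries, 41 lay within 1.5-fold, 5 were lower and 1 was higher in the library labelled KO. This balance depended on the processing, with 0 lower and 3 higher under Leiden clusters, 2 and 3 with doublets kept, 2 and 4 with a wider gate margin and 4 and 5 with equal weight per cell. In macrophages 1 of 7 members passed 1.5-fold in either direction, beside 5.92% of all 11646 genes tested there. In monocytes 0 of 7 did, beside 8.78% of genes. The same count was 0 of 5 in granulocytes, where 21.4% of genes passed, 0 of 5 in cDC1s (13.7%), 0 of 5 in cDC2s (14.6%), 0 of 4 in mature dendritic cells (15.6%) and 0 of 3 in pDCs (16.5%). T cells had 3 of 6 members past the fold, beside 8.55% of genes, NK cells 1 of 1 beside 18.9%, and melanoma cells 1 of 4 beside 10.2%. B cells held no member with enough UMIs.

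**Figure D4:**
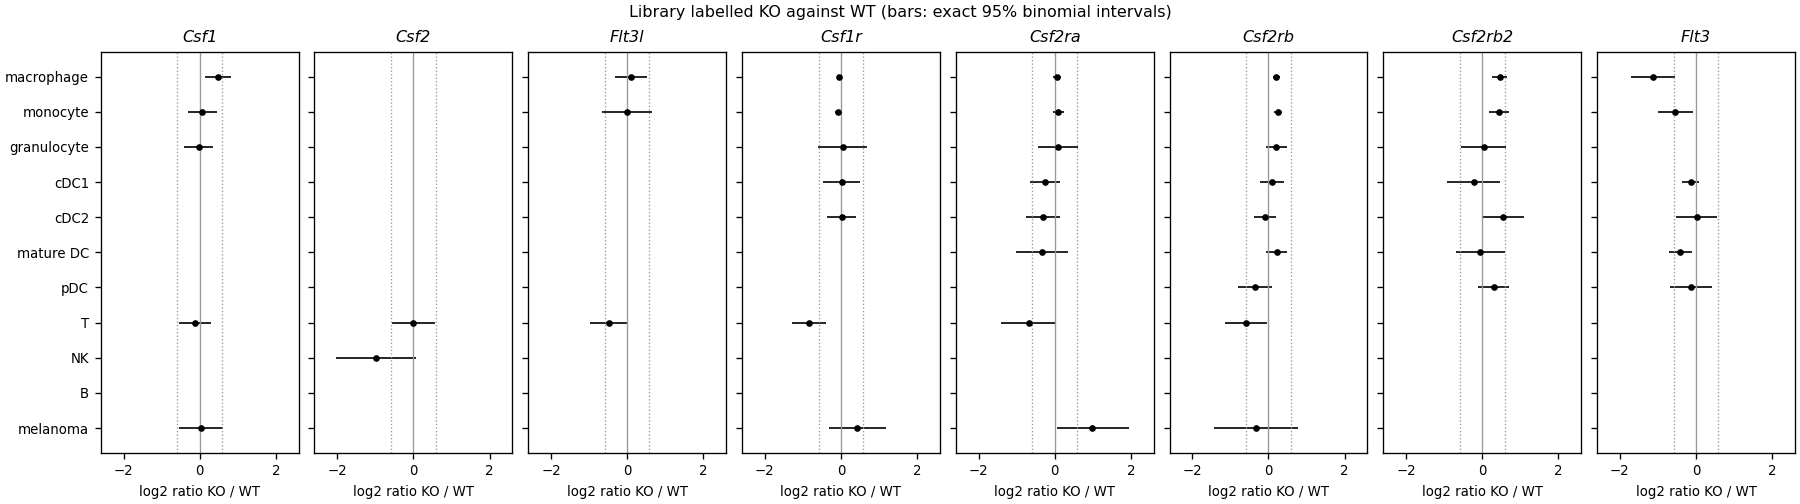
Log2 ratio of the library labelled KO over that labelled WT (x axis) for each gene and class (y axis) with at least 30 UMIs, with bars for exact 95% binomial intervals and dotted lines at 1.5-fold. Csf1r lies at -0.05 in macrophages and -0.07 in monocytes, and Flt3 in macrophages at -1.12.

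The best counted receptor, Csf1r, had a log2 ratio of -0.05 (-0.10 to 0.00) in macrophages and -0.07 (-0.15 to 0.02) in monocytes. Csf2ra stood at 0.06 (-0.05 to 0.16) and 0.10 (-0.05 to 0.25) in the same classes. In macrophages and in monocytes as whole classes, both beta chain genes were slightly higher in the library labelled KO, though within 1.5-fold. Csf2rb had a log2 ratio of 0.21 (0.11 to 0.31) in macrophages and 0.25 (0.14 to 0.36) in monocytes, and Csf2rb2 0.46 (0.26 to 0.65) and 0.43 (0.17 to 0.70). Each of these 4 ratios kept its sign under every alternative processing tried, and the ranges were 0.14 to 0.51, 0.23 to 0.41, 0.10 to 0.67 and 0.15 to 0.62 in that order. The sign was also the same in the sub-gates of monocytes and of macrophages, which were divided into cycling, Arg1-positive and other cells. In cycling macrophages the intervals included 0, for Csf2rb (0.14, -0.05 to 0.34) and for Csf2rb2 (0.22, -0.21 to 0.64). Csf2rb stood at 0.22 (0.02 to 0.42) in Arg1-positive and 0.17 (0.03 to 0.32) in other macrophages. Csf2rb2 stood at 0.58 (0.23 to 0.95) and 0.37 (0.09 to 0.66) in these. Csf2rb stood at 217 and 237 in monocytes where MHC class II was high, with a log2 ratio whose interval included 0 (0.13, -0.01 to 0.26), and at 200.2 and 270.2 where it was low (0.43, 0.26 to 0.61). Csf2rb2 stood at 28.7 and 48.7 in MHC class II-low monocytes, past 1.5-fold (0.76, 0.32 to 1.23). In MHC class II-high monocytes it stood at 40.1 and 47.7, and the interval of its log2 ratio (0.25, -0.07 to 0.58) included 0. Granulocytes without Retnlg held 437 and 732 of Csf2rb, also past 1.5-fold (0.74, 0.31 to 1.17), and those with Retnlg 481 and 427 (-0.17, -0.55 to 0.19). The median log2 ratio of all genes tested was 0.01 in macrophages and -0.01 in monocytes.

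**Figure D5:**
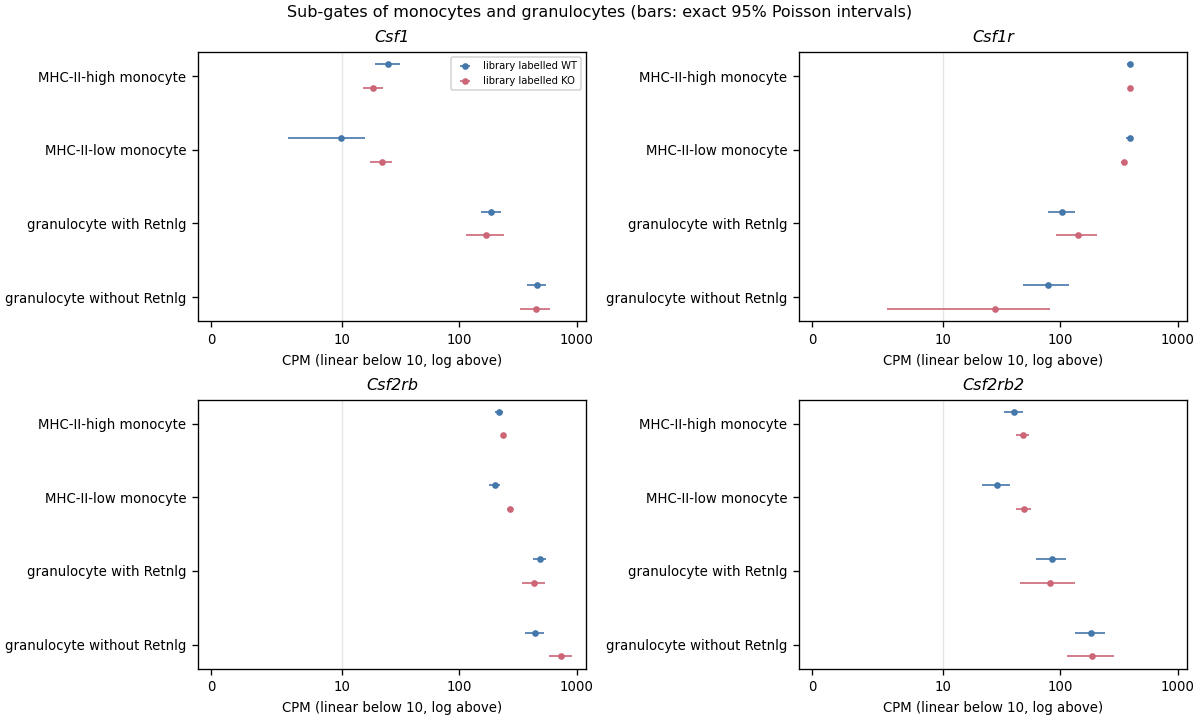
CPM (x axis, linear below 10 and logarithmic above) of Csf1, Csf1r, Csf2rb and Csf2rb2 in the sub-gates of monocytes and granulocytes (y axis), with 1 point per library and bars for exact 95% Poisson intervals. Csf1 in MHC class II-low monocytes stands at 9.93 and 21.8, and Csf1 in granulocytes without Retnlg at 456 and 445.

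Csf1 in macrophages was 6.48 and 9.07 CPM, a log2 ratio of 0.48 (0.14 to 0.84). The sub-gates differed. Arg1-positive macrophages held 6.42 and 17.3 (1.43, 0.70 to 2.22). Cycling macrophages held 6.23 and 5.26 (-0.24, -0.95 to 0.45) and other macrophages 6.71 and 8.16 (0.28, -0.25 to 0.82). The ratio over all macrophages turned to -0.24 when every cell had equal weight and to -0.30 after thinning. MHC class II-low monocytes went from 9.93 to 21.8, a log2 ratio of 1.13 (0.39 to 1.95), against 24.5 and 18.4 in MHC class II-high monocytes, where 1 cell labelled WT held 20 UMIs. The shares of macrophages with a Csf1 UMI were 5.20% and 5.45%.

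Flt3 was lower in macrophages of the library labelled KO. The level was 4.77 (3.85 to 5.85) and 2.19 (1.55 to 3.01), from 92 and 38 UMIs, a log2 ratio of -1.12 (-1.71 to -0.56). It was -0.16 when cells were grouped by Leiden clusters in place of gates. Dendritic cell markers were also summed in the macrophage gate: the 9 cDC1 markers stood at 511 and 543 CPM, cDC2 markers at 226 and 277 and mature dendritic cell markers at 24.9 and 30.2, while pDC markers stood at 48.4 and 39.0. Of these lists, only Clec4a4 was at 0 in macrophages, in the library labelled WT. In monocytes Flt3 was 14.7 and 10.1, a log2 ratio of -0.55 (-1.01 to -0.08), and the ratio turned to 0.29 after thinning. In MHC class II-high monocytes Flt3 stood at 15.6 and 7.33 (-1.09, -1.73 to -0.45) and in MHC class II-low monocytes at 13.2 and 13.9 (0.08, -0.64 to 0.83). In the monocyte gate the cDC1 markers summed to 578 and 645, cDC2 markers to 294 and 323, mature dendritic cell markers to 19.9 and 23.4 and pDC markers to 115 and 74.9, with Gcsam at 0 in both libraries and Tmem150c at 0 in that labelled WT. Mature dendritic cells, the highest class, had a log2 ratio of -0.41 (-0.71 to -0.10), whereas cDC1s stood at -0.14 (-0.37 to 0.09), cDC2s at 0.01 (-0.53 to 0.56) and pDCs at -0.14 (-0.69 to 0.41). After thinning, mature dendritic cells stood at -0.97 and cDC1s at -0.68. The part of the marker levels in these results was not tested.

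Csf1r, Csf2ra and Csf2rb were lower in T cells of the library labelled KO, beside lower macrophage markers. Csf1r there was 38.8 and 21.8 CPM, a log2 ratio of -0.83 (-1.28 to -0.38), Csf2ra 14.4 and 9.04 (-0.68, -1.42 to 0.04) and Csf2rb 24.3 and 16.2 (-0.59, -1.13 to -0.04). The 11 macrophage markers, none at 0, summed to 786.5 and 531 CPM in the same cells, the 10 monocyte markers to 1632 and 1392 and the 10 granulocyte markers to 231 and 78.5. Without the 52.0% and 42.2% of T cells that carried such markers, the Csf1r ratio was -0.17, that of Csf2rb -0.38 and that of Csf2ra -1.03. Csf2ra lay within 1.5-fold under Leiden clusters (-0.17), thinning (-0.19), a wider gate margin (-0.51) and with doublets kept (-0.52). Csf1r was -0.29 with doublets kept, -0.31 under Leiden clusters, -0.37 with equal weight per cell and -0.56 with a wider margin. Csf2rb was -0.04 with a wider margin, 0.19 after thinning, -0.30 under Leiden clusters, -0.35 with doublets kept, -0.43 with equal weight per cell and -0.52 with stricter cell filters. Csf2ra in melanoma cells was 2.52 and 4.93 (log2 ratio 0.97, 0.07 to 1.94), beside macrophage markers at 768 and 754 and granulocyte markers at 129 and 32.0, and its ratio was 1.18 without the melanoma cells that carried macrophage or monocyte markers.

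For the ligands in lymphocytes, Csf2 in T cells had a log2 ratio of 0.00 (-0.56 to 0.56), and 0.81 after thinning, which left 7 and 14 UMIs. Csf2 in NK cells had one of -0.98 (-2.04 to 0.08), which became 0.60 when the cell with the most UMIs was left out of each library. Flt3l in T cells stood at -0.49 (-0.99 to 0.01), and at -1.33 after thinning. In granulocytes, the class with the highest level, Csf1 had a log2 ratio of -0.02 (-0.41 to 0.36).

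A list of 53 other genes of these pathways gave the surroundings. In macrophages 0 of 49 genes with enough UMIs passed 1.5-fold, beside 5.92% of all genes, and the median log2 ratio was 0.06. The highest were Socs2 (0.45, 0.08 to 0.83), which encodes a feedback inhibitor of cytokine receptors, Dok2 (0.40, 0.33 to 0.48), an adaptor that restrains signalling, and Irf4 (0.40, -0.04 to 0.84). Csf3 (-0.43), Zbtb46 (-0.40) and Kit (-0.38) were lowest, each with an interval that included 0. In monocytes 2 of 46 were higher and 1 lower, beside 8.78% of all genes in either direction, with a median of 0.08. Bcl2l1, which encodes the survival factor BCL-XL, went from 43.2 to 71.4 CPM (0.73, 0.50 to 0.96) and Socs1 from 86.6 to 136 (0.65, 0.49 to 0.81), while Cish, another STAT5 target, stood at 0.52 (0.17 to 0.87). Kit, the stem cell factor receptor, went from 5.62 to 1.21 (-2.22, -3.34 to -1.18), with 9 of its 26 UMIs labelled WT in 1 cell and all 26 in MHC class II-high monocytes. It was no longer called lower with a wider gate margin, thinned, without the cell with the most UMIs or at a minimum of 100 UMIs. Dok3 and Pik3r1 stood at -0.37 and -0.24.

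Of the other ligands and receptors of the list, Csf3, which encodes G-CSF, passed the fold in granulocytes, as did 21.4% of all genes. It was found there with 52 UMIs in 26 of 563 cells labelled WT and 1 UMI in 243 cells labelled KO, or 62.2 and 3.41 CPM, a ratio of 0.0548 (0.00136 to 0.319). A single cell held 13 of the 52 UMIs. Granulocytes with Retnlg held 54.8 and those without it 77.8 in the library labelled WT. Its receptor Csf3r marked the same cells at 1896 and 2259 CPM. Il34, the second ligand of CSF1R, was at 0 in macrophages, monocytes and granulocytes of both libraries. Il3 had 17 UMIs in the T cells labelled KO, all in 1 cell, Il5 had 3 UMIs in the T cells of each library, and Il5ra had 4 and 1 UMIs in B cells. Kitl stood at 7.00 and 6.41 in macrophages, Kit at 111 and 89.1 in cDC1s and 110.0 and 71.5 in NK cells, and Il3ra, the alpha chain of the interleukin-3 receptor, at 24.85 and 32.15 in monocytes. Kit was lower past the fold in T cells, at 18.3 and 7.48 (log2 ratio -1.29, -2.05 to -0.57), beside 8.55% of genes. In melanoma cells, where 10.2% of genes passed, Kit stood at 12.9 and 6.80 (-0.92, -1.46 to -0.40), Csf3r at 5.37 and 1.07 (-2.33, -3.66 to -1.18, with the granulocyte markers of the same cells at 129 and 32.0) and Il3ra at 5.20 and 8.80 (0.76, 0.12 to 1.42). Kit in NK cells (-0.62) and Kit (0.62) and Il3ra (0.73) in cDC2s also passed the fold, with intervals that included 0.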

How the data were processed

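Live CD45+ tumour cells had been profiled with 10x 3' chemistry, and the deposited files hold raw UMI counts per gene and cell that the authors made with Cell Ranger 4.0.0 on the mm10 genome. The libraries held 45963969 (WT) and 54052317 (KO) UMIs in 5895 and 8446 barcodes. Cells with at least 200 genes and at most 10% mitochondrial UMIs were kept. Scrublet's automatic call marked 1 cell per library and was not used. Instead the highest-scoring cells were removed, 0.8% per 1000 cells, leaving 5405 and 7625 cells. A cell was gated to the class with the best marker score (at least 0.15, ahead of the next by 0.05), and cells with a second lineage at 0.3 were left out. Intervals were exact Poisson for levels, Clopper-Pearson for shares and exact conditional binomial for ratios, each at 95%. A ratio was read where both libraries together held at least 30 UMIs, against 1.5-fold. MHC class II sub-gates of monocytes used a level of 40 per 10000 UMIs. Macrophage sub-gates used a cycling score of 0.2 and, among the remaining cells, an Arg1 level of 2 per 10000 UMIs. Likeness used log2(CPM + 1) over classes with at least 30 cells, for genes with at least 500 UMIs.

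The text names the 8 members, Mettl3, the ligands and receptors of the pathway list, its 3 highest and 3 lowest ratios in macrophages and in monocytes, and the 3 genes most like each member. Members, markers and lists were chosen with earlier results of these data known. Calls past the fold and the intervals of ratios were tested on simulated counts for the macrophage, monocyte and NK gates. The gating itself was not tested on simulated data. Alternatives covered cell filters, doublets, Leiden clusters (scanpy 1.11.5, leidenalg 0.10.2), gate margin, weighting, thinning to 1000 UMIs, scaling and thresholds, and 1 alternative was chosen after seeing the data: T, NK and melanoma gates without cells scoring 0.1 or more for macrophage or monocyte markers. Coordinates are from GENCODE on GRCm38.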

Additional observations from a re-analysis of the deposited data

How the results depend on the processing

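No paired analysis was possible because each genotype had 1 library, and leaving out a replicate was impossible for the same reason, so depth limits only the counting error and the spread between mice is unknown. Over 51 ratios and their alternatives (485 values), 439 stayed inside the counting interval of the reported ratio, 42 moved outside it, and 4 turned among ratios whose interval excluded 0. Ratios whose interval included 0 also changed sign under some alternatives, among them Csf2 in NK cells, to 0.60 without the cell with the most UMIs, and Csf2rb in melanoma cells, from -0.33 to 1.98 with equal weight per cell. The 4 were Csf1 in macrophages at -0.24 (equal weight per cell) and -0.30 (thinned), and, thinned, Csf2rb in T cells at 0.19 and Flt3 in monocytes at 0.29. The cause was not tested. Thinned ratios came from a single random draw, rest on fewer UMIs and are given without intervals. The Mettl3 ratio in macrophages, 0.08 as reported, was -0.45 with equal weight per cell.

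Member-by-class pairs higher in the library labelled KO, 1 as reported, numbered 2 with stricter cell filters, thinned or with equal weight per sub-gate, 3 with doublets kept or Leiden clusters, 4 with a wider margin, 5 with equal weight per cell, 0 at 2-fold or a minimum of 100 UMIs, and 9 with 1 UMI per library as the minimum. Lower pairs, 5 as reported, numbered 2 with doublets kept, a wider margin or without cells carrying macrophage or monocyte markers, 0 with Leiden clusters, 1 at 2-fold, 3 at 100 UMIs and 12 at 1 UMI. Members with 1 highest class in both libraries, 8 as reported, numbered 5 with Leiden clusters or thinned. Highest classes clear of the next, 11 as reported, numbered 4 when thinned, 8 without the cell with the most UMIs and 9 without cells carrying macrophage or monocyte markers. By share of cells, 5 members had the same highest class, and 3 with stricter cell filters. Pathway genes higher in macrophages or monocytes, 2 as reported, numbered 4 with equal weight per cell and 0 at 2-fold. Lower ones, 1 as reported, numbered 3 with doublets kept, 2 with equal weight per cell, per sub-gate or at 1 UMI, and 0 with a wider margin, thinned, without the cell with the most UMIs or at 100 UMIs.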

Other observations

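Small classes outside the comparison held high levels of some members. Fibroblast-like cells (9 labelled WT, 14 labelled KO) held 183 (121 to 267) and 174 (114 to 255) CPM of Csf1, and no UMI of Csf2rb or Csf2rb2. Mast or basophil-like cells (6 and 5) held 835 (361 to 1646) and 919 (459 to 1645) of Csf2rb, and their Csf1 stood at 940 from 9 UMIs labelled WT and at 251 from 3 UMIs labelled KO. Both classes were left out of the comparisons because they held fewer than 30 cells.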
